A study of Homo sapiens with 8 samples.

Results

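The 42 genes described here act in G2 and in mitosis, the last gap before cell division and the division itself. They were taken as listed by name among the 25435 gene rows of a read count table, and all 42 were among the 13213 genes with enough reads to test. The rule used no measured value, but the list and the split by length below were chosen with earlier results of these data known. They comprise 8 genes of cyclins, CDK1 and its partners, 5 of mitotic kinases and BIRC5, 5 of the spindle checkpoint, 5 of the centromere and kinetochore, 7 of spindle assembly, 6 of the spindle midzone and cytokinesis, 3 of anaphase promotion, 2 of chromosome structure and surface (TOP2A and MKI67), and the transcription factor FOXM1. Because counts varied with transcript length between libraries, the genes were also split by the longest transcript in the GENCODE 29 annotation: 3 were long (8000 nt or more: MKI67, CENPF and CENPE), 8 medium (4000 nt to under 8000 nt) and 31 short (under 4000 nt).

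In dividing cells, cyclin B bound to CDK1 drives entry into mitosis, Aurora and Polo-like kinases build the spindle, the checkpoint proteins hold back anaphase until every chromosome is attached, and CDC20 then turns on the ligase that destroys cyclin B and securin. Most of these genes are transcribed late in the cell cycle and are nearly silent in resting cells. NF-Y binds CCAAT boxes in their promoters, and a complex of MuvB proteins with B-MYB and FOXM1 acts through an element called the cell cycle genes homology region, or CHR. In cells with a working p53, its target p21 leads to repression of the same genes through the DREAM complex, which also binds the CHR.

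The cells were HGC27, a human gastric cancer line that the labels give as having no p53. According to the sample labels, cells overexpressed the p53 mutant R175H, R248Q or R273H, each a substitution in the DNA-binding domain that is frequent in tumours, or GFP, a fluorescent protein serving as the control. Each of the 4 groups had 2 mRNA libraries, 8 in all, and every group, GFP included, was in the same line grown in the same medium. The title given to the series speaks instead of knockout and knockdown, and the groups are called here by the sample labels. How the proteins were expressed, whether a line was 1 clone, and whether the 2 libraries of a group came from separate cultures is stated nowhere in the labels. P-values therefore measure only the spread between these libraries, which may be technical.

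Total counts per library were 6800463 and 9017777 for R175H, 11659301 and 11599907 for R248Q, 11287251 and 11788035 for R273H, and 9769342 and 8928928 for GFP. A floor of 3 counts was 0.256 to 0.443 CPM (counts of a gene scaled to library size), far below each of the 42 genes. Replicates differed most in GFP. A chi-square per gene over all genes was 1.60 for the R175H pair, 1.21 for R248Q and 1.51 for R273H, against 5.72 for GFP, and over the 42 genes it was 2.43 for the R175H pair, 0.967 for R248Q and 2.41 for R273H, against 10.9 for GFP. GFP replicate 1 stood apart for its low counts of long transcripts. For the long genes among the 42 called against GFP, values are given with and without it. The same holds for other calls among the 42 that it decides. For genes outside the 42, values without it are not given. Of 10 epithelial markers only KRT8 and CLDN7 averaged 1 CPM or more, with a summed level of 10.5 to 15.6 CPM per library. CDH1, EPCAM, KRT18 and KRT19 were near 0. Gastric differentiation markers summed to 0 to 0.514 CPM, with 8 of the 11 analysed at 0 in every library, while 7 of 8 mesenchymal markers were present and summed to 7185 to 7982 CPM.

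Promoters are shown for 5 of the genes, CCNB1, CDC20 and PLK1 because their mRNA was lower in R175H, and MKI67 and CENPF because theirs was higher in R248Q. Sequences are from RefSeq (build GRCh38.p14), run 5′ to 3′ on the gene's strand, and cover 250 bases before to 50 after the annotated start. Capitals mark the CHR letters TTTGAA or TTCGAA and the box CCAAT, each searched on both strands. In MKI67 a CHR and a reversed CCAAT box overlap by a base.
CCNB1 (chr5:69166900-69167199, plus strand): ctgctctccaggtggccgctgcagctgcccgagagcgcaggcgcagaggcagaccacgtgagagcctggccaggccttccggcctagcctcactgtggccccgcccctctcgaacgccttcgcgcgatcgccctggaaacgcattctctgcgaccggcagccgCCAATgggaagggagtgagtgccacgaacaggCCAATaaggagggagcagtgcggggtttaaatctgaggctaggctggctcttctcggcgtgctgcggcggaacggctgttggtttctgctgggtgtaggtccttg
CDC20 (chr1:43358731-43359030, plus strand): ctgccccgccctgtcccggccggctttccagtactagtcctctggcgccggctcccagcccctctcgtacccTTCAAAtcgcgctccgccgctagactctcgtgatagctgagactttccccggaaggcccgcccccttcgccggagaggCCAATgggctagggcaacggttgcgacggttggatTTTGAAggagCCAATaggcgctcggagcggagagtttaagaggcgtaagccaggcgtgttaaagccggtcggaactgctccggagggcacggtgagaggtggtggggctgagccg
PLK1 (chr16:23678639-23678938, plus strand): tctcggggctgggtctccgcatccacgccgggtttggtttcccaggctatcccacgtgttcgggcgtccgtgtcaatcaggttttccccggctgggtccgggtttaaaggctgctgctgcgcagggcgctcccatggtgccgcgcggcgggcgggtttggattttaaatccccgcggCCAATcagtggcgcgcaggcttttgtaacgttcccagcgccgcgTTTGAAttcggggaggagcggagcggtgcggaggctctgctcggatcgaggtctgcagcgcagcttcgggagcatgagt
CENPF (chr1:214602945-214603244, plus strand): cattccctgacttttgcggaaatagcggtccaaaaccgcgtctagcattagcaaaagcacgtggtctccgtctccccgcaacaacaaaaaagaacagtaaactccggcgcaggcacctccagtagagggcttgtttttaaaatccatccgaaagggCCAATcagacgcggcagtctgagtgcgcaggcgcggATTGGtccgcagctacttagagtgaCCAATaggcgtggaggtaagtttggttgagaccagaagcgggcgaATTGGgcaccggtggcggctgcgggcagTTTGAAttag
MKI67 (chr10:128126374-128126673, minus strand): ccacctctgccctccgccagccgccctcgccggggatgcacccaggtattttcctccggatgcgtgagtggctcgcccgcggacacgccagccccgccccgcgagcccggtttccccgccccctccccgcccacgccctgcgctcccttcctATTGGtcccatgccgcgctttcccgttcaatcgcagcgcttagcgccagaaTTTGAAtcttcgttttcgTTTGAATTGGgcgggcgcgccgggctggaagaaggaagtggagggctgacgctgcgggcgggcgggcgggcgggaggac
CCNB1 held CCAAT boxes and no CHR letters in this window, and the other promoters printed held both. Other spellings of the CHR were not searched for, so a gene without these letters may still hold the element. The RefSeq table matched 34 of the 42 genes; AURKA, BIRC5, BUB3, TTK, TPX2, RACGAP1, UBE2C and FOXM1 were not matched. CHR letters were in 24 of the 34 promoters (70.6%), against 11% of 9707 promoters of genes tested and 16.4% of all 35116 in the table. A CCAAT box was in 26 (76.5%), against 36.7% of tested genes and 34.6% of all. Both were in 20 (58.8%), against 4.6% and 6.38%, and 4 held neither. For the 42 and the tested genes only the first promoter listed under a symbol was searched, so another start of a gene may differ. The 35116 include every promoter of a gene. Of the 10 matched genes that fell in R175H (below), 7 (70%) held CHR letters and 8 (80%) a CCAAT box, and of the other 24 genes, 17 (70.8%) and 18 (75%) did. These are matches of letters and were not tested as binding sites.

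R175H cells had less mRNA of 13 of the 42 genes than GFP cells, CCNB1, AURKA and CDC20 among them. These 13 (31%) fell in edgeR's quasi-likelihood test at an adjusted p below 0.05, where 4.59% of all tested genes fell. In the same test 0 of the 42 rose (0 at an unadjusted p below 0.05, and 0 with DESeq2 or limma-voom), where 6.39% of all genes did. The 13 were CCNB1, CCNA2, AURKA, PLK1, BIRC5, MAD2L1, NDC80, DLGAP5, ANLN, KIF23, CDC20, UBE2C and PTTG1. Their falls were modest, from -0.20 to -0.35 on the log2 scale. The median log2 fold change of the 42 was -0.13, against 0.01 over all genes tested, and 37 of the 42 values lay below 0. In 28 genes (66.7%) both R175H libraries lay below both GFP libraries, and in none above; over all genes 24.3% lay below and 26.8% above. In these bulk libraries, fewer cells in G2 and mitosis and less of each mRNA per cell cannot be told apart.

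**Figure D1:**
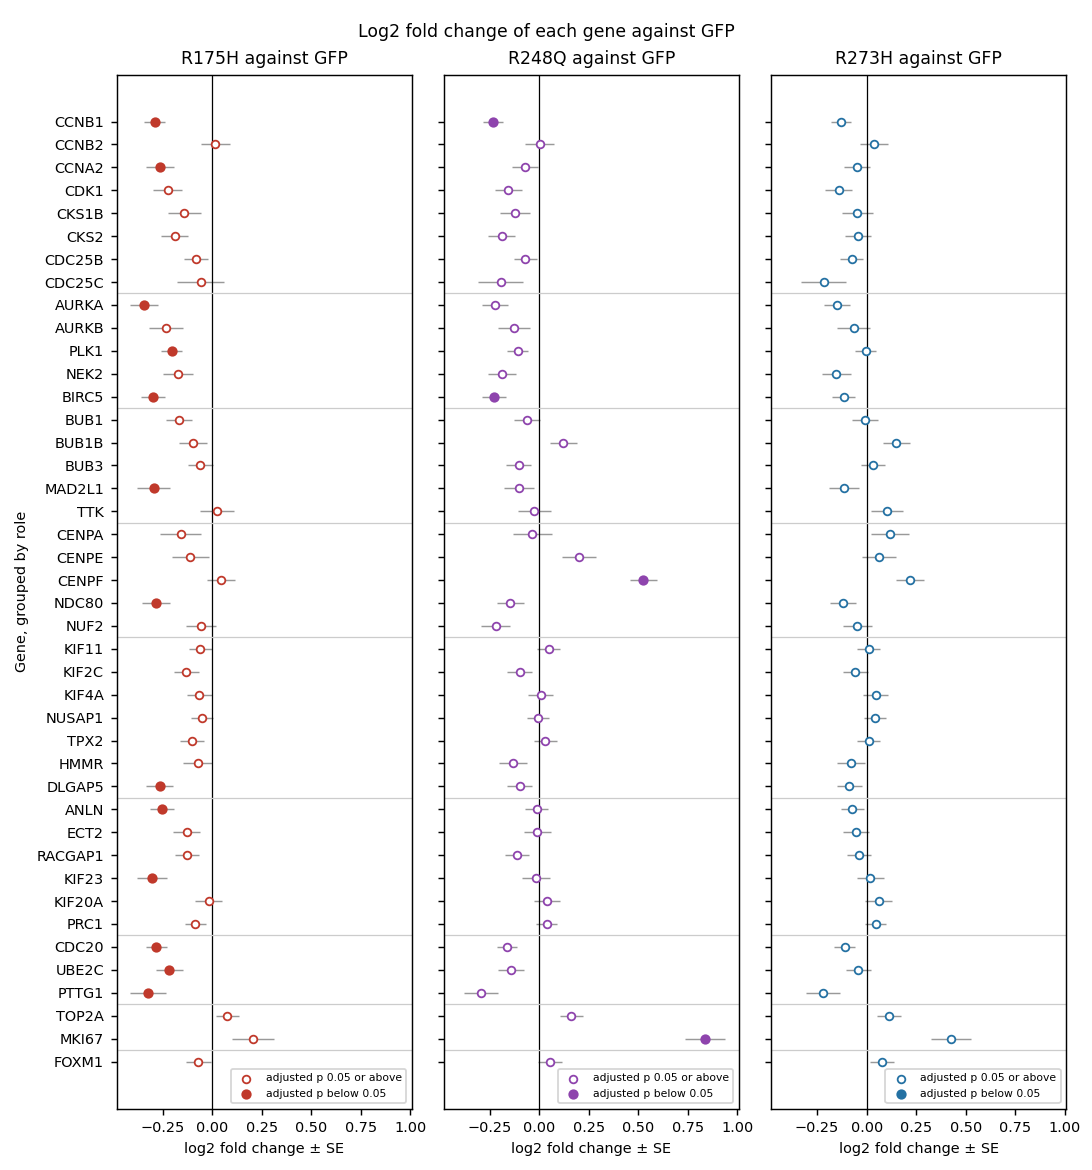
Log2 fold change of each of the 42 genes in R175H, R248Q and R273H against GFP (points, with the standard error as a bar), genes grouped by role down the page. Filled points passed the test: 13 lie left of 0 in R175H, 2 left and 2 right of 0 in R248Q, and none is filled in R273H.

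Among cyclins, CDK1 and its partners, 2 of 8 fell in R175H. CCNB1, the cyclin that activates CDK1 at mitotic entry, had 304 and 305 CPM in R175H, 321 and 312 in R248Q, 344 and 336 in R273H, against 378 and 366 in GFP. The mutant libraries all lay below the GFP libraries without overlap, with R175H the lowest and R273H the highest of the mutants, and the log2 fold change of R175H was -0.29 ± 0.05 (SE, edgeR adjusted p = 0.0021). CCNA2, the cyclin of S phase and early mitosis, had 100.0 and 93.8 CPM in R175H, 111 and 109.8 in R248Q, 112 and 112 in R273H, against 109 and 123 in GFP, with a log2 fold change of -0.26 ± 0.07 (SE, edgeR adjusted p = 0.025) in R175H. Only the R175H libraries of CCNA2 lay clear of GFP. CDK1 itself had 139 and 146 CPM in R175H, 148 and 151 in R248Q, 150.3 and 151 in R273H, against 179 and 153 in GFP; its value in R175H was -0.23 ± 0.07 (SE) and missed the threshold (edgeR adjusted p = 0.055). The CDK-binding subunits CKS1B and CKS2 were at -0.14 and -0.19, the activating phosphatases CDC25B and CDC25C at -0.08 and -0.06, none past the threshold. CCNB2, another B-type cyclin, overlapped between R175H and GFP, with 92.8 and 88.5 CPM in R175H, 89.6 and 89.4 in R248Q, 87.4 and 96.1 in R273H, against 93.6 and 85.3 in GFP and a log2 fold change of 0.02 ± 0.07 (SE) in R175H.

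The mitotic kinases and BIRC5 lay below GFP in R175H in all 5 genes, and 3 fell. AURKA, the Aurora kinase of centrosomes and spindle poles, had 75.4 and 81.0 CPM in R175H, 84.9 and 85.8 in R248Q, 90.7 and 88.6 in R273H, against 103 and 96.4 in GFP. Every mutant library was below both GFP libraries, and the R175H value of -0.35 ± 0.07 (SE, edgeR adjusted p = 0.0043) was the lowest of the 42. BIRC5 (survivin), a subunit of the chromosomal passenger complex, had 205 and 214 CPM in R175H, 221 and 219 in R248Q, 237 and 238 in R273H, against 270.4 and 245 in GFP, and its log2 fold change in R175H was -0.30 ± 0.06 (SE, edgeR adjusted p = 0.0046). The kinase of that complex, AURKB, was at -0.23 ± 0.09 (SE, edgeR adjusted p = 0.09), with 114 and 133 CPM in R175H, against 157 and 135 in GFP. Of its other subunits, which are not among the 42, CDCA8 fell by 0.21 ± 0.06 (SE, edgeR adjusted p = 0.039) and INCENP was at -0.04 ± 0.10 (SE). PLK1, the Polo-like kinase, had 250.1 and 250.2 CPM in R175H, 264 and 270.3 in R248Q, 285 and 289 in R273H, against 294 and 282 in GFP. Its R175H libraries were low, with -0.20 ± 0.05 (SE, edgeR adjusted p = 0.023), while its R273H libraries lay within the range of GFP. NEK2, a kinase of centrosome separation, was at -0.17 ± 0.07 (SE) in R175H and was not called.

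In the spindle checkpoint, 1 of 5 genes fell in R175H. MAD2L1, which binds and holds CDC20, had 64.0 and 60.1 CPM in R175H, 70.8 and 70.8 in R248Q, 67.7 and 72.8 in R273H, against 80.8 and 71.2 in GFP, and a log2 fold change of -0.30 ± 0.08 (SE, edgeR adjusted p = 0.028). The other checkpoint genes gave -0.17 for BUB1, -0.10 for BUB1B, -0.06 for BUB3 and 0.02 for the kinase TTK. At the kinetochore, NDC80, part of the microtubule attachment complex of the same name, had 91.6 and 88.9 CPM in R175H, 99.9 and 98.5 in R248Q, 99.1 and 103 in R273H, against 116 and 103 in GFP, and fell in R175H with -0.28 ± 0.07 (SE, edgeR adjusted p = 0.017). Its partner NUF2 was at -0.06 ± 0.08 (SE) and was not called, and the complex's remaining subunits SPC24 and SPC25, not among the 42, were at -0.04 and -0.18. CENPA, the centromeric histone, had 39.4 and 34.0 CPM in R175H, against 44.1 and 37.1 in GFP, which overlapped.

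In spindle assembly, 1 of 7 genes fell in R175H. DLGAP5, which stabilises kinetochore fibres, had 148 and 138 CPM in R175H, 161 and 159 in R248Q, 162 and 162 in R273H, against 181 and 162 in GFP, with -0.27 ± 0.07 (SE, edgeR adjusted p = 0.017) in R175H. The other genes, KIF11, KIF2C, KIF4A, NUSAP1, TPX2 and HMMR, lay between -0.13 and -0.05. Of the midzone and cytokinesis genes 2 of 6 fell. ANLN, a scaffold of the contractile ring, had 216 and 198 CPM in R175H, 244 and 244 in R248Q, 236 and 233 in R273H, against 238 and 255 in GFP, and KIF23, the motor of the centralspindlin complex, had 68.9 and 77.7 CPM in R175H, 90.1 and 89.3 in R248Q, 89.3 and 94.9 in R273H, against 93.1 and 88.5 in GFP. The R175H libraries were the lowest of both genes, below every other library. Their log2 fold changes in R175H were -0.25 ± 0.06 (SE, edgeR adjusted p = 0.013) for ANLN and -0.30 ± 0.08 (SE, edgeR adjusted p = 0.016) for KIF23. RACGAP1, which pairs with KIF23 in centralspindlin, was at -0.13 ± 0.06 (SE), and ECT2, the exchange factor it recruits, at -0.13 ± 0.07 (SE), neither called. The midzone genes KIF20A and PRC1 were at -0.02 and -0.09.

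All 3 genes of anaphase promotion fell in R175H. CDC20, which activates the anaphase-promoting complex, had 440.4 and 454 CPM in R175H, 491 and 479.7 in R248Q, 509 and 499 in R273H, against 560.3 and 527 in GFP. Each mutant library of CDC20 lay below both GFP libraries, and R175H gave -0.28 ± 0.05 (SE, edgeR adjusted p = 0.0028). UBE2C, the ubiquitin-conjugating enzyme of that complex, had 134 and 145 CPM in R175H, 149 and 145 in R248Q, 155 and 161 in R273H, against 171 and 154 in GFP, with -0.22 ± 0.07 (SE, edgeR adjusted p = 0.049) in R175H. PTTG1 (securin), which holds separase inactive, had 102 and 105 CPM in R175H, 105 and 107 in R248Q, 108 and 115 in R273H, against 145 and 114 in GFP. The 2 GFP libraries of PTTG1 were far apart, and its value in R175H of -0.32 ± 0.09 (SE, edgeR adjusted p = 0.03) came to -0.14 without GFP replicate 1, where it was no longer called. FOXM1, the transcription factor of the set, had 239.6 and 267 CPM in R175H, 272.5 and 281 in R248Q, 279 and 283 in R273H, against 257 and 276 in GFP, and overlapped GFP in R175H, with -0.07 ± 0.06 (SE).

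The R175H calls were sensitive to single libraries. A fit that leaves out a library leaves its group with 1, which is then assumed to vary like the other groups, and the 1 left without GFP replicate 2 is the library that stood apart. Without R175H replicate 1 only CCNB1 and ANLN remained, without R175H replicate 2 only CCNB1, AURKA, BIRC5, KIF23 and CDC20. Some of the 13 were also lost whichever R248Q or R273H library was left out. In each of these fits a smaller share of all genes was called lower as well, so the losses were not particular to the 13. CCNB1 alone was kept in every such fit. With only the R175H and GFP libraries in the fit, 2 genes were called lower (share of all genes not given here). Over these fits the log2 fold changes of the 13 stayed between -0.48 and -0.14. Without GFP replicate 1, MAD2L1 came to -0.20, NDC80 to -0.20 and UBE2C to -0.14, also losing their calls. The median log2 fold change of the 42 was then -0.12. Without GFP replicate 2, all 13 were called among 17 lower (40.5%), and 3 of the 42 were called higher (7.14%), beside 11.4% of all genes lower and 13.6% higher in that fit.

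**Figure D2:**
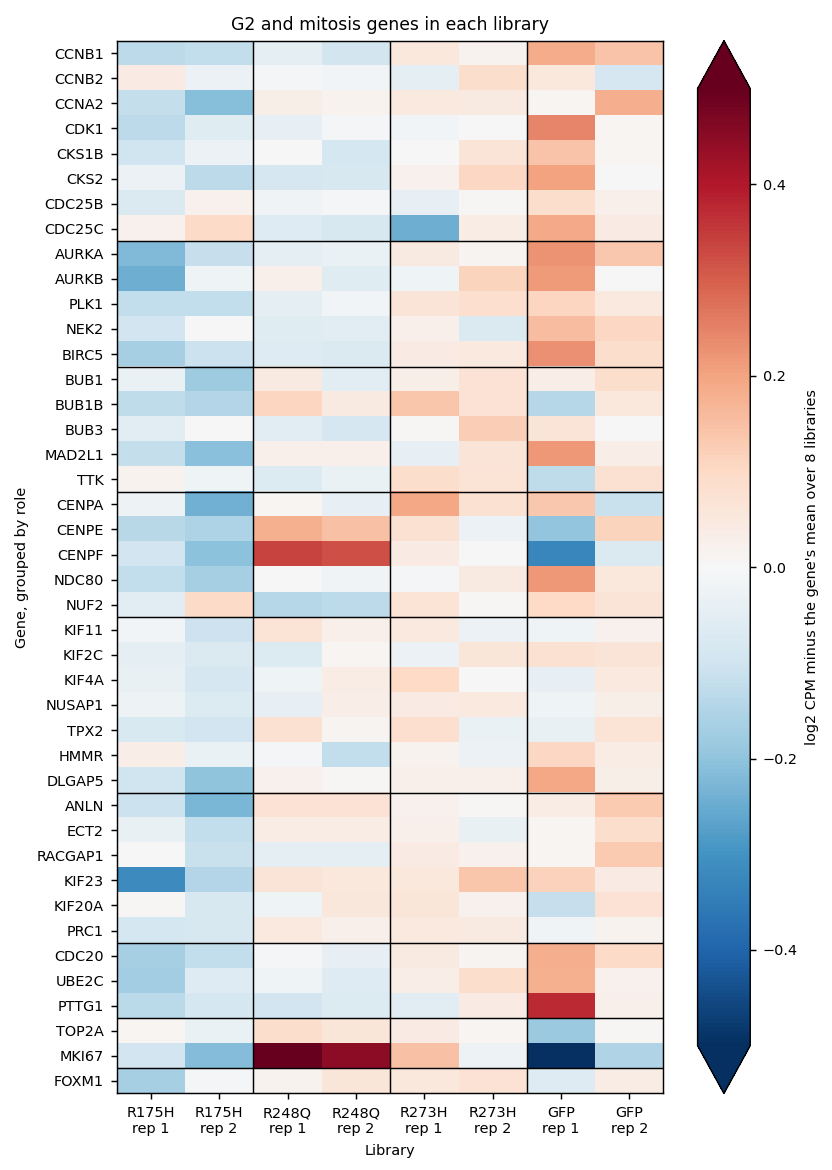
Deviation of each gene's log2 CPM from its own mean over the 8 libraries (colour, log2 scale, blue below and red above), genes grouped by role down the page, libraries across. Most rows are blue in the R175H libraries, and CENPF and MKI67 are red in the R248Q libraries and deep blue in GFP replicate 1.

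R248Q cells differed from GFP cells in 4 of the 42 genes. MKI67 (Ki-67, which coats mitotic chromosomes and marks dividing cells) and CENPF (a kinetochore protein) rose, and CCNB1 and BIRC5 fell. Over all genes tested, 4.88% rose and 1.44% fell, and the 2 genes in each direction were 4.76% of the 42. MKI67 had 232 and 213 CPM in R175H, 350.3 and 338 in R248Q, 274 and 243 in R273H, against 163 and 223 in GFP. The R248Q libraries were the highest and those of GFP spanned the widest range, and the means were 344 ± 9.05 CPM in R248Q and 193 ± 42.5 CPM in GFP (SD, n = 2 each). Its log2 fold change was 0.84 ± 0.10 (SE, edgeR adjusted p = 0.0001), or 1.79-fold. CENPF had 299.8 and 277 CPM in R175H, 404 and 400.2 in R248Q, 329 and 321 in R273H, against 255 and 304 in GFP, and a log2 fold change in R248Q of 0.53 ± 0.07 (SE, edgeR adjusted p = 0.00024). CENPE, the third long gene and a kinetochore motor, had 63.9 and 63.3 CPM in R175H, 79.6 and 77.9 in R248Q, 74.2 and 69.0 in R273H, against 61.4 and 76.1 in GFP; its R248Q libraries were also the highest, but 0.20 ± 0.09 (SE) was not called (edgeR adjusted p = 0.19). The fall of CCNB1 was -0.23 ± 0.05 (SE, edgeR adjusted p = 0.012) and that of BIRC5 -0.23 ± 0.06 (SE, edgeR adjusted p = 0.028), with no overlap of libraries in either. Without R248Q replicate 1 CCNB1 was at -0.25 and BIRC5 at -0.23, without R248Q replicate 2 at -0.21 and -0.22, and neither was called; BIRC5 was called only when all libraries or all but GFP replicate 2 were used, and was at -0.16 without GFP replicate 1. Without GFP replicate 1, MKI67 was at 0.63 and CENPF at 0.40, both called. With GFP replicate 1 as the only GFP library, the spread coming from the other groups, 15 of the 42 genes were called lower (35.7%) and 5 higher (11.9%), beside 11.9% of all genes lower and 13.6% higher in that fit. TOP2A, the topoisomerase that untangles chromosomes, had 724 and 702 CPM in R175H, 764 and 749 in R248Q, 740.0 and 723 in R273H, against 631 and 721 in GFP, and 0.16 ± 0.06 (SE) in R248Q, not called.

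**Figure D3:**
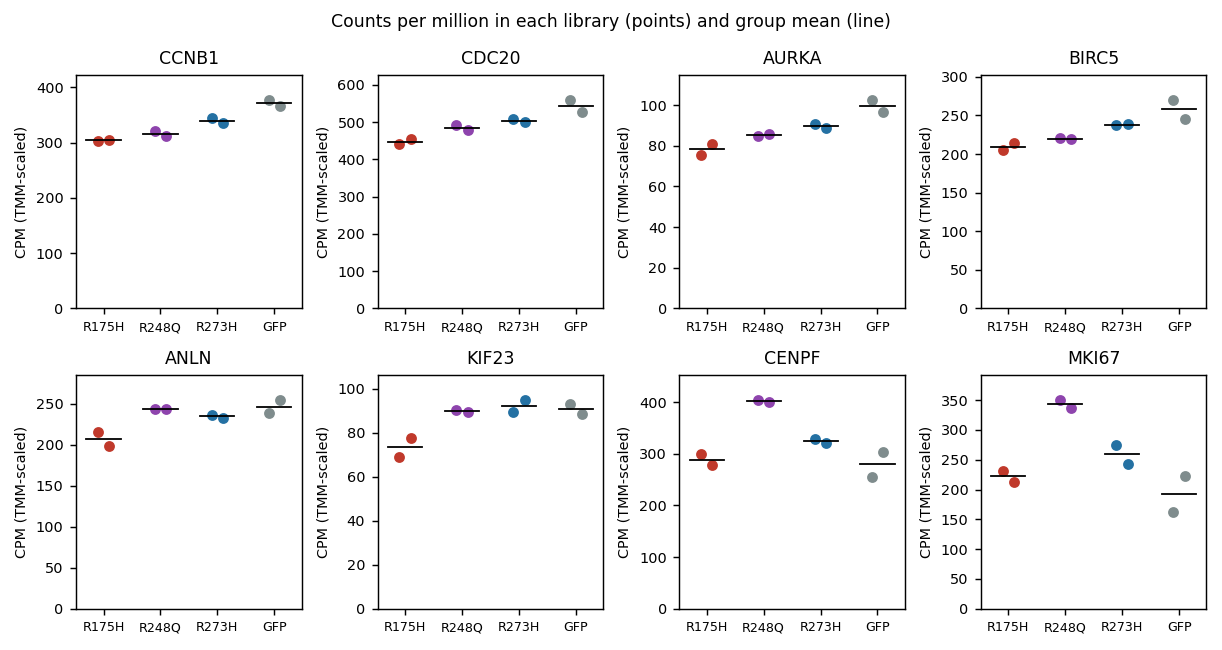
CPM after TMM scaling of 8 of the genes in each library (points) and the group mean (line), with the vertical axis from 0; groups run R175H, R248Q, R273H, GFP. CCNB1, CDC20, AURKA and BIRC5 are highest in GFP, ANLN and KIF23 are low in R175H, and CENPF and MKI67 are highest in R248Q.

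Transcript length separated the 2 directions in R248Q. The 3 long members had a median log2 fold change of 0.53 and the 31 short ones -0.12, with 26 of the short below 0. Of the 1104 long genes tested, 910 lay above 0 in R248Q, with a median of 0.27 and 34.1% called higher, and the 7650 short genes had a median of -0.07, with 2.16% called lower. Across the 42 genes, log2 fold change and log2 length had a Pearson r of 0.71 and a Spearman rho of 0.75 in R248Q, and over 12824 other genes r was 0.38 and rho 0.47. Without the 3 long genes r was 0.59 over 39. These are descriptions across genes that share the same libraries, not independent replicates. In R175H the medians were 0.04 for long and -0.17 for short members, beside 0.17 and -0.03 for all long and all short genes, and in R273H 0.22 and -0.05, beside 0.14 and -0.04. Of the 13 genes that fell in R175H, 11 were short (35.5% of 31, where 6.34% of all short genes fell) and 2 medium (ANLN and MAD2L1). The annotated longest isoform may not be the one expressed, BUB3 and MAD2L1 among the medium class in particular.

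**Figure D4:**
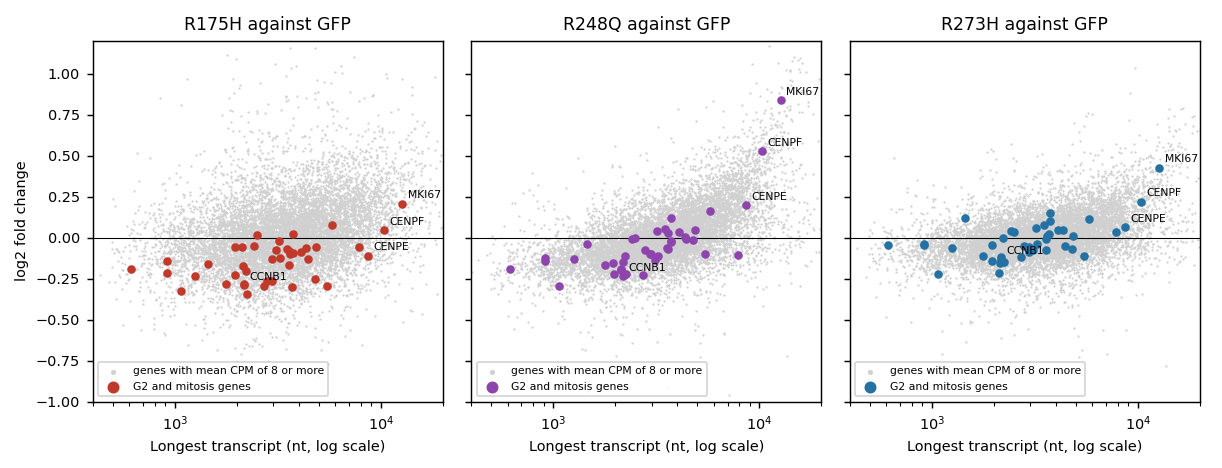
Log2 fold change against GFP (vertical) and length of the longest annotated transcript (horizontal, log scale) for the 42 genes (coloured) and for all genes with a mean CPM of 8 or more (grey), in R175H, R248Q and R273H. Values climb with length in R248Q in both sets, and MKI67 and CENPF sit at the upper right.

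The length pattern differed between libraries. Within a group, it differed most between those of GFP. The median deviation of the long members minus that of the short members, in log2 CPM, was 0.36 and 0.35 in R248Q, 0.00 and -0.12 in R175H, 0.04 and -0.07 in R273H, against -0.44 and -0.12 in GFP. GFP replicate 1 was the lowest library for long members, and also for all 924 well-counted long genes, whose median deviation there was -0.27. The part of RNA quality or library preparation in this was not tested. When the trend of counts with length was fitted in each library and removed, MKI67 in R248Q came to 0.47 ± 0.05 (SE, edgeR adjusted p = 4.6e-07) and CENPF to 0.23 ± 0.04 (SE, edgeR adjusted p = 0.00061), both still higher. The fitted trend was taken as known, so every SE and p-value after length correction leaves out the error of the trend. With GFP replicate 1 left out as well, MKI67 was at 0.38 ± 0.05 (SE) and CENPF at 0.23 ± 0.04 (SE), again called. CENPE in R248Q came to -0.03 ± 0.06 (SE). In R175H, the same correction gave -0.00 ± 0.05 (SE) for MKI67, while CENPF, at -0.13 ± 0.04 (SE, edgeR adjusted p = 0.036), and CENPE, at -0.25 ± 0.07 (SE, edgeR adjusted p = 0.012), were then called lower. After correction 16 of the 42 genes were lower in R175H, 12 of them among the 13, beside 8.83% of all genes. Over all genes it changed the split in R248Q to 3.17% higher and 3.39% lower.

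**Figure D5:**
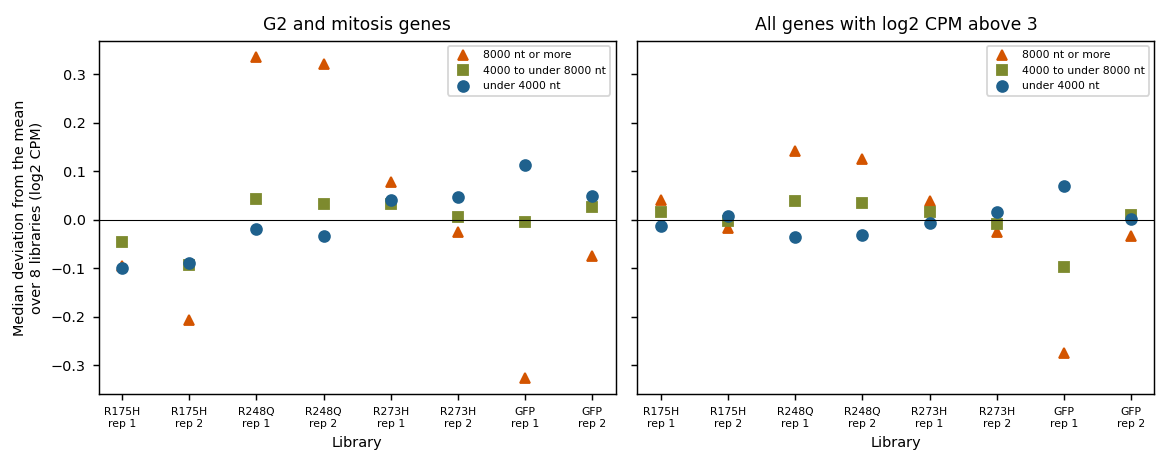
Median deviation of log2 CPM from the mean over 8 libraries (vertical) in each library (horizontal), for the 42 genes (left) and all genes with log2 CPM above 3 (right), by class of transcript length. Long genes (triangles) are highest in the R248Q libraries and lowest in GFP replicate 1 in both panels, and the short members (circles) are lowest in the R175H libraries.

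R273H cells showed no called change from GFP in the 42 genes. In edgeR's test none passed in either direction, where 0.757% of all genes rose and 0.25% fell. At an unadjusted p below 0.05, 3 were higher and 4 lower, beside 997 and 685 of the 13213 genes tested. DESeq2 called none, and limma-voom called MKI67 higher (adjusted p = 0.047). The median log2 fold change was -0.04, and 25 of the 42 values lay below 0. Both R273H libraries lay above both GFP libraries in 7 genes (all genes 20.1%) and below in 13 (all genes 19.3%). MKI67, whose per-library values are above, was at 0.43 ± 0.10 (SE, edgeR adjusted p = 0.06) and CENPF at 0.22 ± 0.07 (SE, edgeR adjusted p = 0.19), both with R273H libraries above both GFP libraries. MKI67 was called when GFP replicate 1 (0.22) or GFP replicate 2 (0.67) was left out, and with the length correction (0.23 ± 0.05, SE, edgeR adjusted p = 0.0091). CCNB1 and AURKA had R273H libraries below both GFP libraries, at -0.13 ± 0.05 (SE) and -0.15 ± 0.07 (SE), not called. With GFP replicate 1 as the only GFP library, 6 of the genes were called higher (14.3%) and 9 lower (21.4%), beside 9.8% of all genes higher and 6.88% lower.

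With the 3 mutants averaged against GFP, 5 of the 42 genes fell and 2 rose, beside 3.04% and 5.21% of all genes. CCNB1 (-0.22 ± 0.04, SE, edgeR adjusted p = 0.0052), AURKA (-0.24 ± 0.05, SE, edgeR adjusted p = 0.013), BIRC5 (-0.21 ± 0.05, SE, edgeR adjusted p = 0.012) and CDC20 (-0.19 ± 0.04, SE, edgeR adjusted p = 0.014) fell, each with all 6 mutant libraries below both GFP libraries, as in 11 of the 42 genes; none of the 42 had all 6 above, beside 8.61% below and 8.57% above over all genes. PTTG1 fell as well (-0.28 ± 0.07, SE, edgeR adjusted p = 0.024), but its libraries overlapped, it was at -0.09 without GFP replicate 1, and of the fits with 1 library left out it was called only in those without GFP replicate 2 or R273H replicate 2. MKI67 (0.49 ± 0.09, SE, edgeR adjusted p = 0.0026) and CENPF (0.26 ± 0.06, SE, edgeR adjusted p = 0.012) rose, both with overlapping libraries. These averages share the GFP libraries with the single comparisons and repeat their values. CCNB1 and MKI67 kept their calls whichever library was left out, as did CENPF, which lost its call after length correction (0.05 ± 0.03, SE, edgeR adjusted p = 0.38). Without GFP replicate 1, MKI67 came to 0.28 and CENPF to 0.14, still called, and BIRC5 was at -0.14 and AURKA at -0.19, neither called. BIRC5 was also lost without R248Q replicate 2 (-0.21) and AURKA without R248Q replicate 1 (-0.24), and CDC20 was at -0.18 or -0.19 and not called without R175H replicate 1 or whichever R248Q or R273H library was left out. With GFP replicate 1 as the only GFP library, 14 genes were called lower (33.3%) and 5 higher (11.9%), beside 11.8% of all genes lower and 13.9% higher.

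The mutants were also compared directly; there the GFP libraries entered only through the scaling and the shared estimate of spread. R248Q had more mRNA than R175H of 5 genes, MKI67, CENPF, CENPE, ANLN and KIF23, and less of none (1 gene at an unadjusted p below 0.05, and 0 with DESeq2 or limma-voom), beside 3.22% of all genes higher and 3.95% lower. The log2 fold change was 0.63 ± 0.10 (SE, edgeR adjusted p = 0.001) for MKI67 and 0.48 ± 0.07 (SE, edgeR adjusted p = 0.00047) for CENPF. It was 0.31 ± 0.09 (SE, edgeR adjusted p = 0.047) for CENPE, 0.24 ± 0.06 (SE, edgeR adjusted p = 0.022) for ANLN and 0.28 ± 0.07 (SE, edgeR adjusted p = 0.027) for KIF23. In all 5, both R248Q libraries lay above both R175H libraries, as they did in 23 of the 42 genes (all genes 28.2%). CENPF alone kept its call in every fit with 1 library left out. MKI67 was lost without R175H replicate 2 (0.57). ANLN, CENPE and KIF23 were lost whichever R175H or R248Q library was left out, and without R273H replicate 2, with values between 0.18 and 0.38, and CENPE also without R273H replicate 1 (0.32). Leaving out GFP replicate 1, or GFP replicate 2, gave 13 called higher (31%) in each case, beside 9.04% and 9.07% of all genes. After length correction MKI67 was at 0.47 ± 0.05 (SE) and CENPF at 0.36 ± 0.04 (SE), both called, among 12 called higher, beside 5.98% of all genes.

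R273H exceeded R175H in 33 of the 42 genes without overlap of libraries (78.6%) and lay below in none, beside 24.9% and 26.4% of all genes. The median log2 fold change was 0.14, against -0.00 over all genes, and 40 of the 42 values lay above 0. The test called 2 of the 42, KIF23 (0.32 ± 0.07, SE, edgeR adjusted p = 0.021) and PLK1 (0.20 ± 0.05, SE, edgeR adjusted p = 0.0498), both higher (4.76%, all genes 1.41%). It called 0 lower (all genes 2.22%), and DESeq2 and limma-voom also gave 0 lower. At an unadjusted p below 0.05, 20 were higher and 0 lower, beside 1025 and 1235 of the 13213 genes tested. Both calls were lost whichever R175H, R248Q or R273H library was left out, KIF23 then lying between 0.24 and 0.42 and PLK1 between 0.19 and 0.21. BUB1B, a checkpoint kinase, had 139.9 and 134 CPM in R273H, against 116 and 115 in R175H, with a log2 fold change of 0.24 ± 0.07 (SE, edgeR adjusted p = 0.069). With the length correction, 15 of the genes were called higher in R273H than R175H, beside 4.46% of all genes; CCNB1 (0.16 ± 0.04, SE), BIRC5 (0.18 ± 0.05, SE), CDC20 (0.19 ± 0.04, SE) and AURKA (0.19 ± 0.06, SE) were among them. Leaving out GFP replicate 1, or GFP replicate 2, gave 20 called higher (47.6%) in each case, beside 5.76% and 5.75% of all genes. Length itself had little relation to this comparison over the 42 genes, with r at 0.06.

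None of the 42 genes was called between R273H and R248Q in edgeR's test, beside 0.00757% of all genes higher and 0.144% lower. At an unadjusted p below 0.05, 3 were higher and 2 lower, beside 374 and 691 of the 13213 genes tested. The 2 lower were MKI67 (-0.41 ± 0.10, SE) and CENPF (-0.31 ± 0.07, SE). DESeq2 called 1 lower, and limma-voom none. Both R273H libraries lay below both R248Q libraries in each of the 3 long genes, as in 58.3% of all long genes and 23% of all genes. MKI67 was called lower after length correction (-0.23 ± 0.05, SE, edgeR adjusted p = 0.026). Leaving out GFP replicate 1, or GFP replicate 2, gave 1 called higher and 2 lower in each case, beside 1.43% of all genes higher and 2.8% lower.

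Levels between genes were set side by side only per length, as mean CPM over the 8 libraries per kilobase of the longest transcript. CKS2 was highest with 339, followed by CDC20 with 279, UBE2C with 166, CCNB1 with 154, TOP2A with 125 and PLK1 with 123. The lowest were CENPE with 8.2 and CDC25C with 9.8, and the abundant long transcripts MKI67 and CENPF came to 20.1 and 31.4. The 42 genes together took 0.690% and 0.678% of the counts of R175H, 0.762% and 0.755% for R248Q, 0.754% and 0.746% for R273H, against 0.746% and 0.765% for GFP, so that R175H was lowest. Close copies elsewhere in the genome took few reads: KIF4B had 7 to 10 counts per library, and PTTG2, PTTG3P and RACGAP1P had at most 5.

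A further 103 mitosis genes outside the 42 were tested in the same fit. In R175H 13 fell (12.6%) and 1 rose (0.971%), beside 4.59% and 6.39% of all genes, with a median log2 fold change of -0.11 and 86 below 0. KPNA2, an importin (-0.39 ± 0.05, SE, edgeR adjusted p = 0.00027), TUBG1, the gamma-tubulin of centrosomes (-0.42 ± 0.06, SE, edgeR adjusted p = 0.00029), CDC25A, an activating phosphatase of CDKs (-0.49 ± 0.09, SE, edgeR adjusted p = 0.0018), and SKA3, a kinetochore protein (-0.46 ± 0.09, SE, edgeR adjusted p = 0.0031), had the lowest p. KPNA2 had 409 and 438 CPM in R175H, 496 and 492 in R248Q, 511 and 510.4 in R273H, against 572 and 540.3 in GFP, TUBG1 had 114 and 120.1 CPM in R175H, 144 and 145 in R248Q, 151 and 146 in R273H, against 158 and 157 in GFP, and R175H was lowest in both. In R248Q 6 rose (5.83%, near the 4.88% of all genes) and 0 fell by edgeR, beside 1.44% of all genes. At an unadjusted p below 0.05, 14 of the 103 were lower, beside 1351 of the 13213 genes tested. CASC5 (KNL1), a kinetochore scaffold (0.48 ± 0.10, SE, edgeR adjusted p = 0.0097), ASPM, a spindle pole protein (0.42 ± 0.09, SE, edgeR adjusted p = 0.012), KNTC1, of the kinetochore (0.41 ± 0.09, SE, edgeR adjusted p = 0.012), and ANAPC1, the largest anaphase-promoting complex subunit (0.29 ± 0.07, SE, edgeR adjusted p = 0.021), led, with CIT and NUMA1. CASC5, ASPM, ANAPC1 and CIT have transcripts of 8000 nt or more, a class in which 34.1% of all tested genes rose in R248Q. GFP replicate 1 lay below GFP replicate 2 in each of them. The values were 33.9 against 43.2 CPM for CASC5, 168 against 220 for ASPM, 83.9 against 94.5 for ANAPC1 and 49.3 against 68.6 for CIT. In R273H none was called in edgeR's test (8 higher and 3 lower at an unadjusted p below 0.05, beside 997 and 685 of the 13213 genes tested). Against R175H, TUBG1 and CDC25A were higher in R273H (0.34 ± 0.06, SE, edgeR adjusted p = 0.0033, and 0.44 ± 0.09, SE, edgeR adjusted p = 0.0079), and likewise in R248Q (0.30 ± 0.06, SE, edgeR adjusted p = 0.0054, and 0.47 ± 0.08, SE, edgeR adjusted p = 0.0026).

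Of 29 regulators of this transcription programme, 1 rose and 1 fell in R175H (3.45% each, below the 6.39% higher and 4.59% lower of all genes). CDKN1B (p27), an inhibitor of cyclin-dependent kinases, had 114 and 112 CPM in R175H, 89.7 and 90.9 in R248Q, 99.5 and 97.8 in R273H, against 88.5 and 92.3 in GFP, and rose in R175H with 0.33 ± 0.06 (SE, edgeR adjusted p = 0.0035); it was lower in R248Q than in R175H (-0.33 ± 0.06, SE, edgeR adjusted p = 0.0043). TFDP1, the partner of E2F factors, fell in R175H with -0.23 ± 0.06 (SE, edgeR adjusted p = 0.024). MYBL2 (B-MYB), which with FOXM1 activates the G2 and mitosis genes, was at -0.15 ± 0.05 (SE, edgeR adjusted p = 0.071), not called. In R248Q 1 fell (3.45%, all genes 1.44%), CDKN2D, another CDK inhibitor (-0.68 ± 0.15, SE, edgeR adjusted p = 0.012). In R273H none was called (1 lower at an unadjusted p below 0.05, beside 685 of the 13213 genes tested).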

How the data were processed

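Per the labels' protocols, mRNA libraries were made with a Roche Kapa mRNA Hyper kit from total RNA of HGC27 cells. Per the submitters' processing notes, bcl2fastq and STAR 2.5 were used with the hg19 build; the counter, annotation and strand setting were not given in the sources used here. Reads of overlapping genes could therefore not be told apart. The authors deposited unnormalised read counts by gene symbol, as integers.

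The analysis used edgeR 4.0.16 in R 4.3.3. filterByExpr (minimum count 10, minimum total 15) left 13213 genes with 99.9% of counts. After TMM scaling, 1 quasi-likelihood fit covered all 4 groups (4 residual degrees of freedom, prior 11.9, biological coefficient of variation 4.51%). Each mutant, and their mean, was compared with GFP, and the mutants with each other. Calls required an adjusted p (Benjamini-Hochberg over all tested genes) below 0.05. SE is |log2 fold change| over the root of F, and SD is between the 2 libraries of a group in CPM. The SE includes counting error, at 6800463 to 11788035 counts per library. The fit was also run on simulated counts in which every group had the same spread. The wider spread of the GFP pair was left out, so no conclusion is drawn from that run.

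Transcript lengths came from GENCODE 29, by current symbol for 22677 rows and by an older symbol for 952, giving a length to 97.4% of tested genes. The length correction removed a loess trend (span 0.3, genes of log2 CPM above 3) of each library's deviation on log2 length as an offset. Promoters came from RefSeq (GRCh38.p14), a build other than that of the counts, and were matched by symbol.

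Alternatives were other scalings and filters, DESeq2 1.42.0, limma-voom (limma 3.58.1), the compared groups alone, a replicate block, each library left out, and the length corrections. Replicate numbers were not taken as pairs: deviations of same-numbered libraries correlated at -0.24 to 0.07 between groups. The members, lists, length classes, comparisons and rule for named genes (members called in any comparison and the long members in full; up to 4 called genes of lowest p from the other lists, with partners of a named complex) were chosen with earlier results of these data known. The level of the overexpressed gene itself is not reported here.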

Additional observations from a re-analysis of the deposited data

How the results depend on the processing

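No value of the 42 genes that was called in a comparison changed sign under any alternative. Counts of the 42 genes called, as higher or lower, moved as follows. The share of all genes called moved as well when libraries were left out. A count printed here without that share does not show a change particular to the 42. Leaving out each library in turn gave 0 to 3 higher and 2 to 17 lower in R175H against GFP (0 and 13 with all libraries), 2 to 5 higher and 0 to 15 lower in R248Q (2 and 2), 0 to 6 higher and 0 to 9 lower in R273H (0 and 0), and 2 to 5 higher and 2 to 14 lower for the mutant mean (2 and 5). It gave 1 to 13 higher in R248Q than R175H (5), 0 to 20 higher in R273H than R175H (2), and 0 to 1 higher and 0 to 2 lower in R273H than R248Q (0 and 0). With only the 2 groups compared in the fit, R175H had 2 lower and R248Q 0 lower against GFP, while 13 were higher in R248Q than R175H, 17 in R273H than R175H, and 5 higher and 2 lower in R273H than R248Q. With a replicate block, although the libraries were not shown to be paired, 8 were lower in R175H, 1 lower in R248Q, 2 higher in R248Q than R175H and 1 higher in R273H than R175H. DESeq2 gave 1 lower in R248Q, 3 higher in R248Q than R175H, 1 higher in R273H than R175H and 1 lower in R273H than R248Q, and limma-voom 1 higher in R273H. With no filter beyond 1 count, 1 was higher in R175H, 4 lower in R248Q, 2 higher in R273H, 5 higher in R273H than R175H and 2 lower in R273H than R248Q. The length correction gave 1 higher in R273H (all genes 1.55%), and 1 higher and 8 lower for the mutant mean (all genes 5.09% and 5.74%). It gave 12 higher in R248Q than R175H (all genes 5.98%) and 15 higher in R273H than R175H (all genes 4.46%). In R273H against R248Q it gave 1 lower (all genes 0.219%). With GFP replicate 1 also left out it gave 1 lower in R248Q, 1 higher for the mutant mean, 20 higher in R248Q than R175H, 23 in R273H than R175H, and 1 higher and 2 lower in R273H than R248Q. Lengths taken as the median transcript gave 4 lower in R248Q, 1 higher in R273H, 9 higher in R273H than R175H and 1 lower in R273H than R248Q. Apart from fits with fewer libraries, the cause of these shifts was not tested. With 2 libraries a group, single libraries decided many of these calls.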

Other observations

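Several genes of DNA replication were also lower in R175H than in GFP. Of 44 S phase genes, 6 fell and 1 rose in R175H against GFP, with a median log2 fold change of -0.11 and 36 below 0; over all genes 4.59% fell and 6.39% rose, and here 13.6% fell and 2.27% rose. FEN1, the flap endonuclease of lagging strand synthesis, had 172 and 185 CPM in R175H, 212 and 206 in R248Q, 215 and 219.9 in R273H, against 246 and 221 in GFP, and fell in R175H by 0.39 ± 0.06 on the log2 scale (SE, edgeR adjusted p = 0.0011). ORC6, of the origin recognition complex (-0.46 ± 0.09, SE, edgeR adjusted p = 0.0023), and GINS3, of the replicative helicase (-0.49 ± 0.10, SE, edgeR adjusted p = 0.0052), fell as well, while CDT1, which is needed to load that helicase, rose (0.34 ± 0.06, SE, edgeR adjusted p = 0.0023). In R248Q POLE, the catalytic subunit of DNA polymerase epsilon, rose (0.36 ± 0.08, SE, edgeR adjusted p = 0.012) and GINS3 fell (-0.32 ± 0.09, SE, edgeR adjusted p = 0.049). Each was 2.27% of the 44, beside 4.88% of all genes higher and 1.44% lower. POLE had 115 and 116 CPM in R248Q, against 82.1 and 98.4 in GFP, with GFP replicate 1 the lower. In R273H edgeR called none (1 higher and 2 lower at an unadjusted p below 0.05, beside 997 and 685 of the 13213 genes tested). FEN1 and ORC6 were higher in R273H than in R175H (0.28 ± 0.06, SE, edgeR adjusted p = 0.019, and 0.34 ± 0.08, SE, edgeR adjusted p = 0.033), and CDT1 was lower (-0.31 ± 0.06, SE, edgeR adjusted p = 0.0083).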
